A study of Mus musculus with 4 samples.

Results

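Integrins are cell surface receptors built from an alpha and a beta subunit, which bind matrix proteins or adhesion molecules on other cells. The genes described here are 10 integrin subunits of myeloid cells, chosen by name: Itga4, Itga5, Itga6, Itgal, Itgam, Itgav, Itgax, Itgb1, Itgb2 and Itgb5. Each was found on a single locus that carried no other symbol, among 23735 loci of a table of RNA levels in mouse peritoneal macrophages. The Ch25h_KO group came from C57BL/6 mice labelled ApoE-/-/Ch25h-/-, that is, without cholesterol 25-hydroxylase and apolipoprotein E. The Ch25h_WT group came from C57BL/6 mice labelled ApoE-/-/Ch25h+/+. By these labels the Apoe deletion is shared by both groups, and it is not itself compared. Each group held 2 libraries, described as biological duplicates. All mice were 6 weeks old and had received 3% thioglycolate, a sterile irritant that draws macrophages into the peritoneal cavity, 3 days before collection. The cells were then cultured in medium with 10% fetal bovine serum. The labels name 12 mice per group without saying how they were divided between libraries, and give neither a time in culture nor a purification step. Every p-value here therefore rests on the scatter among these 4 libraries, and some of that scatter may be technical.

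Levels are FPKM, fragments per kilobase of transcript, scaled to the mapped fragments of a library. They can be compared between genes because they are per length. The spacing of the low values gave an approximate depth of 9760000 to 12700000 fragments per library. Ch25h was 4.25 and 5.53 FPKM in the Ch25h_KO libraries, against 63.3 and 65.3 FPKM in the Ch25h_WT libraries. Apoe was 3683 and 3373 FPKM in Ch25h_KO, against 614 and 609.9 FPKM in Ch25h_WT (log2 change 2.52, limma adjusted p = 0.00127). All 4 libraries nevertheless carry an ApoE-/- label, and levels of a whole locus do not check that allele. An equal Apoe background in the 2 groups is therefore not shown. All 7 defining macrophage markers were detected in every library, with Adgre1 (F4/80, listed under its older symbol Emr1) at 381 and 388 FPKM in Ch25h_KO and 418 and 425 FPKM in Ch25h_WT. Markers of other cells were present as well. The 7 mast cell markers summed to 156 and 159 FPKM in Ch25h_KO, against 223 and 229 FPKM in Ch25h_WT. The 6 measured B cell markers summed to 287 and 302 FPKM in Ch25h_KO, against 319 and 323 FPKM in Ch25h_WT.

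The beta2 integrins are found on leukocytes. Itgb2 encodes the shared beta2 chain (CD18), which pairs with the alpha chain of Itgal (CD11a) to bind the ICAM proteins, with that of Itgam (CD11b) to form complement receptor 3, and with that of Itgax (CD11c) to form complement receptor 4. The beta1 chain of Itgb1 pairs with alpha4 and alpha5, receptors for VCAM-1 and fibronectin, and with alpha6, a laminin receptor. The alphav chain of Itgav pairs with beta5, and the dimer binds vitronectin and takes part in the uptake of dying cells. Macrophages use these receptors to leave the blood, adhere and engulf particles, and CD11b is a standard surface marker of the lineage.

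The 10 genes differed in level by more than 2 orders of magnitude. Averaged over all 4 libraries, Itgb2 stood at 603 FPKM and Itgam at 569 FPKM, which placed them 160th and 170th among 15211 loci listed above 0. Itgb1 followed at 328 FPKM, 262nd in the same order. A middle tier held Itga5 at 47.1, Itga6 at 43.6 and Itgav at 24.0 FPKM. Itgal at 13.7, Itgb5 at 9.27 and Itga4 at 7.68 FPKM were lower, and Itgax at 0.958 FPKM was the lowest of the 10. Itgb5 and Itga4 were the only neighbours in this order whose ranges over the 4 libraries overlapped. Itga5 (44.7 to 49.3 FPKM) and Itga6 (43.2 to 44.3 FPKM) nearly met. The order was a description of these libraries and was not tested.

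**Figure D1:**
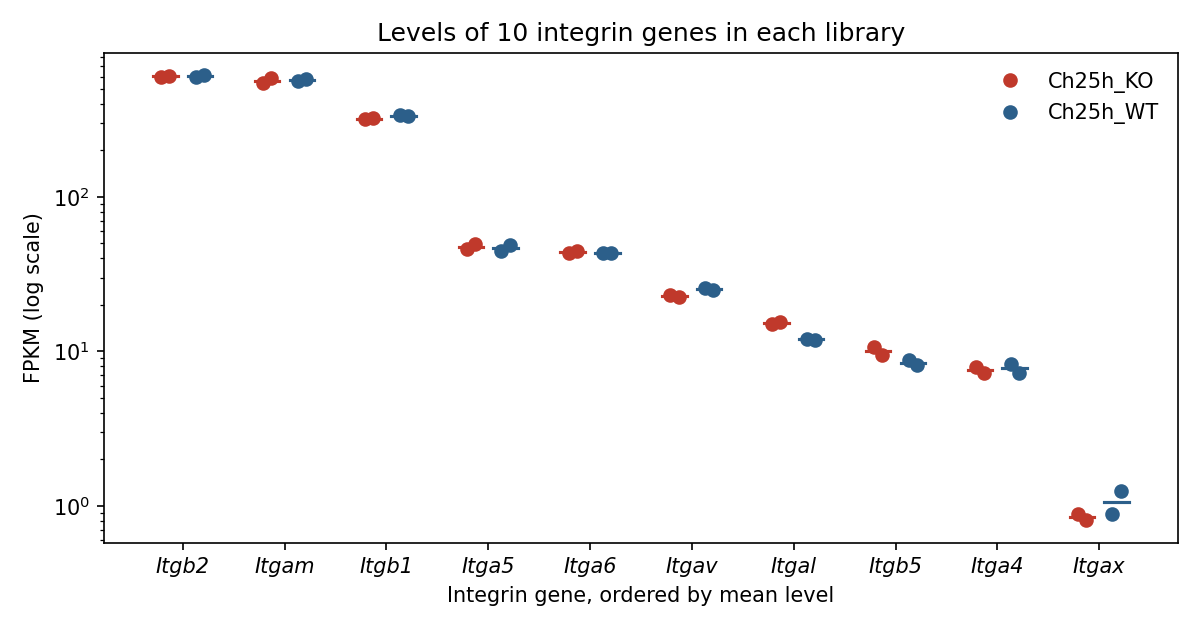
FPKM of the 10 integrin genes on a log axis, with a point for each of the 2 libraries per group and a short line at the group mean (Ch25h_KO red, Ch25h_WT blue). Itgb2, Itgam and Itgb1 lie above 300 FPKM in every library and Itgax lies near 1 FPKM, and the distance between genes is far larger than that between groups.

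The balance of RNA for alpha and beta chains differed between the beta chains. Itgb5, at a mean of 9.27 FPKM, was below its partner Itgav at 24 FPKM. The alpha chains that pair with beta2 (Itgal, Itgam, Itgax and Itgad) summed to 558 and 603 FPKM in Ch25h_KO, against 578 and 596 FPKM in Ch25h_WT. This sum was 0.940 and 0.992 times the Itgb2 level in Ch25h_KO, and 0.966 and 0.974 times in Ch25h_WT, so RNA for the alpha and beta chains of this family was close to equal in all libraries. Itgam made up 97.1% and 97.3% of the sum in Ch25h_KO and 97.8% in each Ch25h_WT library. The sum of Itga4, Itga5, Itga6 and Itgav was well below Itgb1, at 0.379 and 0.380 times its level in Ch25h_KO, against 0.362 and 0.371 times in Ch25h_WT. Within that sum Itga5 held 38.2% and 39.9% in Ch25h_KO, against 36.7% and 39.2% in Ch25h_WT, and Itga6 held 36.1% and 36.0%, against 35.5% and 34.9%. Other alpha chains of beta1 exist, Itgav is shared with beta5, and RNA levels do not give the amounts of protein dimers.

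Itgam and Itgax are close neighbours on chromosome 7, and in the RefSeq gene order of GRCm38.p6 a pseudogene alone lies between them. Itgad, the next alpha chain gene in that order, was listed above 0 in a single library, Ch25h_WT replicate 2, at 0.0239 FPKM. That value was taken as 1 fragment, because the spacing method cannot resolve a value found in a single library. Itgam was 608 and 727 times as high as Itgax in the Ch25h_KO libraries, and 639 and 467 times in the Ch25h_WT libraries. The start regions of this pair are shown because the genes are neighbours with such different levels. RefSeq windows of 250 bases before to 50 bases after the gene start were given for 7 of the 10 genes. The sequences below are both on the plus strand of GRCm38.p6 (chr7:128062390-128062689 for Itgam and chr7:128129300-128129599 for Itgax). Capitals mark GAGGAA or its reverse complement TTCCTC, a form of the site bound by PU.1, a transcription factor of the myeloid lineage.
Itgam: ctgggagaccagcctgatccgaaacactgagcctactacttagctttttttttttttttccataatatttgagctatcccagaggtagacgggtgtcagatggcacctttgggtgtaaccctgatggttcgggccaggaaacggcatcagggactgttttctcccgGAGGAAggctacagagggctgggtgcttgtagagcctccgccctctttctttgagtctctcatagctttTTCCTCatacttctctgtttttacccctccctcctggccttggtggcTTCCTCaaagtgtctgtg
Itgax: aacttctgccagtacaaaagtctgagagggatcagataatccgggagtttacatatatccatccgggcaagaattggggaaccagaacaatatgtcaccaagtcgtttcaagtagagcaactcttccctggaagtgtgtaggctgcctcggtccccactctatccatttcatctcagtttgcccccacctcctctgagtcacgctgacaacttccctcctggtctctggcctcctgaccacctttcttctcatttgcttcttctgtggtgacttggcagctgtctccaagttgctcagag
The Itgam window held 3 matches, starting 84 and 15 bases before the gene start and 33 bases into the transcribed part, and the Itgax window held 0. Of 32851 promoter windows of the same length in the RefSeq table, 28.3% held this motif on either strand. The Itgam window also held 1 match to GGGCGG, the core of an Sp1 site, on either strand, and the Itgax window held 0, where 35.7% of all windows held it. Neither window held TATAAA, which 13.6% of windows held. Shorter or other forms of the PU.1 site were not counted, so 0 matches do not show that the Itgax window lacks one. A match is a run of letters and not evidence of binding, and binding was not measured.

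The comparison asked whether these genes differ when Ch25h is absent. None of them passed the test. Differences were tested with limma on log2(FPKM + 1) over all 10074 loci that averaged 1 FPKM or more, and a locus was called at a Benjamini-Hochberg adjusted p under 0.05. Of the 10 genes 9 entered the test, and Itgax stayed below the level filter. With limma 0 of these 9 were called, where 0.437% of all tested loci were called (0.228% higher and 0.208% lower in Ch25h_KO). At an unadjusted p under 0.05 the limma count was 2 of 9 (Itgal and Itgb5, both higher in Ch25h_KO), against a background of 20.9% of tested loci, 9.38% on the higher and 11.5% on the lower side. The 2 groups did not overlap for 5 of the 9 genes, 3 higher in Ch25h_KO and 2 lower, against a background of 53.7%, 23.4% higher and 30.3% lower. The median log2 change of the 9 genes was -0.011, and that of all tested loci was -0.014. Counts over 9 genes are too small to show whether these shares differ from their backgrounds. In bulk RNA, fewer cells of a type and less RNA per cell cannot be told apart.

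**Figure D2:**
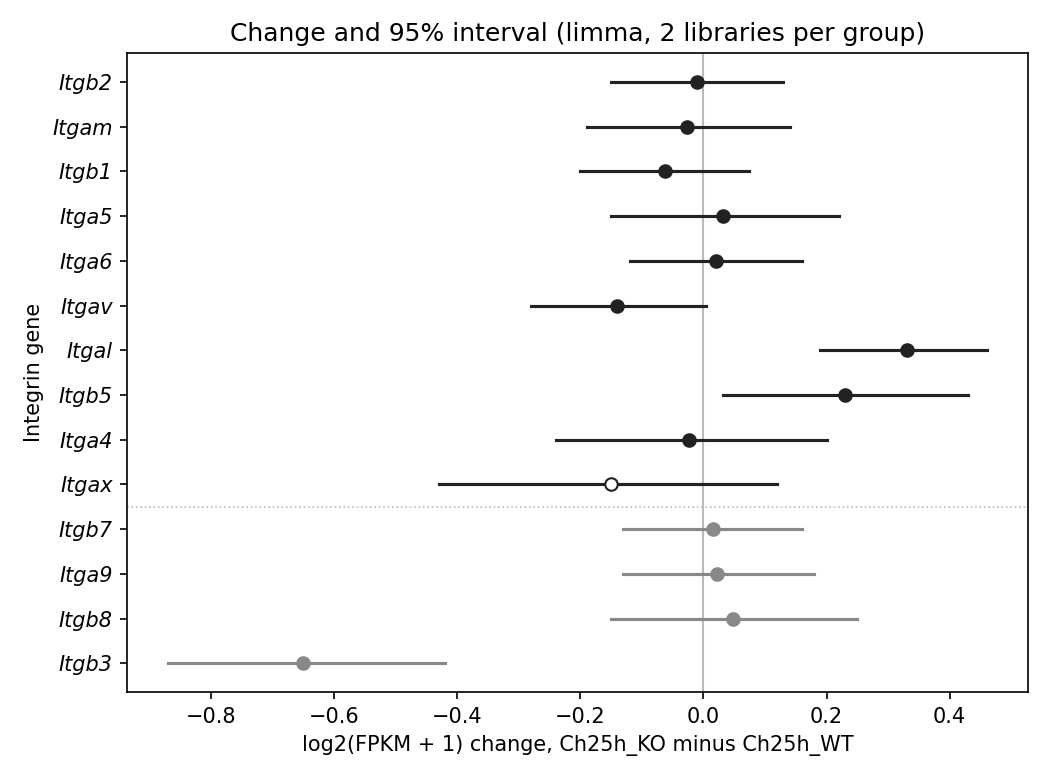
Change on the log2(FPKM + 1) scale, Ch25h_KO minus Ch25h_WT, with the 95% interval from limma, for the 10 integrin genes (black) and for 4 other integrin subunits that passed the level filter (grey, below the dotted line). The open circle for Itgax comes from the fit without a level filter. Itgal, Itgb5 and, on the lower side, Itgb3 have intervals that leave out 0, and none of these passed after adjustment.

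The shared beta2 chain was at nearly the same level in all libraries. Itgb2 was 594 and 608 FPKM in Ch25h_KO, against 599 and 612 FPKM in Ch25h_WT, and the groups overlapped. Its log2 change was -0.011 (SE 0.053, limma adjusted p = 0.929) with a 95% interval of -0.15 to 0.13, and 6.72% of tested loci had a smaller absolute change. Itgam was 542 and 587 FPKM in Ch25h_KO, against 565 and 583 FPKM in Ch25h_WT. Its lowest and highest values were both in Ch25h_KO, so the spread between those duplicates enclosed the Ch25h_WT values. The log2 change of Itgam was -0.026 (SE 0.064, limma adjusted p = 0.853) with a 95% interval of -0.19 to 0.14.

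Itgal, the alpha chain of the lymphocyte function antigen LFA-1, had the greatest difference among the 9 tested genes. It was 15.1 and 15.5 FPKM in Ch25h_KO, against 12.1 and 11.9 FPKM in Ch25h_WT. The libraries of each group lay close together and the groups did not overlap. The ratio of the means was 1.27, and the log2 change was 0.33 (SE 0.052, 95% interval 0.19 to 0.46), greater in absolute size than that of 93.8% of tested loci. The limma adjusted p was 0.0966, so Itgal was not called. It passed under 3 of 12 alternative settings, with adjusted p = 0.0388 at a pseudocount of 5 FPKM, 0.0472 with a filter at 5 FPKM and 0.0180 with limma's trend and robust options, and over all alternatives the adjusted p ran from 0.0180 to 0.340. Its share of the RNA for beta2-pairing alpha chains was 2.71% and 2.56% in Ch25h_KO, against 2.10% and 2.0% in Ch25h_WT. An exact permutation test of that share, two-sided, gave p = 0.333, the smallest that 2 against 2 libraries allow.

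Itgal is also expressed by lymphocytes, neutrophils and monocytes, so their markers were read in the same libraries. The 8 markers of T and NK cells were each listed above 0 in at least 3 libraries and summed to 6.38 and 7.64 FPKM in Ch25h_KO, against 5.80 and 6.58 FPKM in Ch25h_WT, with overlapping groups. The sum of the B cell markers, as given above, was lower in Ch25h_KO. Limma called 0 of these 6 markers, where 0.437% of tested loci were called. Pax5 had a higher mean in Ch25h_KO, at 6.43 and 5.95 FPKM, against 3.79 and 6.26 FPKM in Ch25h_WT. The 9 measured neutrophil markers summed to 117 FPKM in each Ch25h_KO library, against 72.3 and 83.1 FPKM in Ch25h_WT. Most of that sum was S100a8, at 99.0 and 98.7 FPKM in Ch25h_KO and 56.3 and 66.6 FPKM in Ch25h_WT, and S100a9 was 15 and 16.5 FPKM in Ch25h_KO and 13.9 and 13.4 FPKM in Ch25h_WT. Granule genes were low. Mpo was listed at 0 in both Ch25h_KO libraries, against 0.0614 and 0.0384 FPKM in Ch25h_WT. Ngp was 0.0911 and 0.292 FPKM in Ch25h_KO and listed at 0 in both Ch25h_WT libraries. Camp was lower in Ch25h_KO, at 0.88 and 0.471 FPKM, against 0.906 and 1.36 FPKM in Ch25h_WT. All 8 monocyte markers were tested and 1 rose, where 0.228% of tested loci were called higher. It was Ly6c2, a surface marker of inflammatory monocytes, at 14.3 and 17.3 FPKM in Ch25h_KO, against 3.12 and 2.70 FPKM in Ch25h_WT, a ratio of means of 5.42 (log2 change 2.10, SE 0.11, limma adjusted p = 0.0117). Its coding sequence is close to that of its neighbour Ly6c1, so the split of reads between them is uncertain. Ly6c2 did not pass without Ch25h_WT replicate 1 or 2, at limma adjusted p of 0.0552 and 0.0777. The monocyte markers summed to 1971 and 2152 FPKM in Ch25h_KO, against 2205 and 2252 FPKM in Ch25h_WT, most of it Fn1. The part of these cells in the Itgal values was not tested.

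Itgax, the alpha chain also used to mark dendritic cells, was 0.892 and 0.807 FPKM in Ch25h_KO, against 0.885 and 1.25 FPKM in Ch25h_WT. These levels correspond to 39 and 33 fragments in Ch25h_KO, against 47 and 53 fragments in Ch25h_WT, from the spacing of the values. The exact Poisson 95% intervals, which cover counting error only, were 0.634 to 1.22 and 0.556 to 1.13 FPKM in Ch25h_KO, against 0.650 to 1.18 and 0.935 to 1.63 FPKM in Ch25h_WT. The 4 intervals overlapped, as did the values of the 2 groups. In the limma fit without a level filter the log2 change was -0.15 (SE 0.10, adjusted p = 0.526). The 8 dendritic cell markers summed to 53.5 and 49.5 FPKM in Ch25h_KO, against 44.8 and 44.0 FPKM in Ch25h_WT, nearly all of it Ccr7 and Cd209a, which other cells can also express. Zbtb46, a transcription factor of conventional dendritic cells, was 1.79 and 1.48 FPKM in Ch25h_KO, against 2.07 and 1.52 FPKM in Ch25h_WT.

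**Figure D3:**
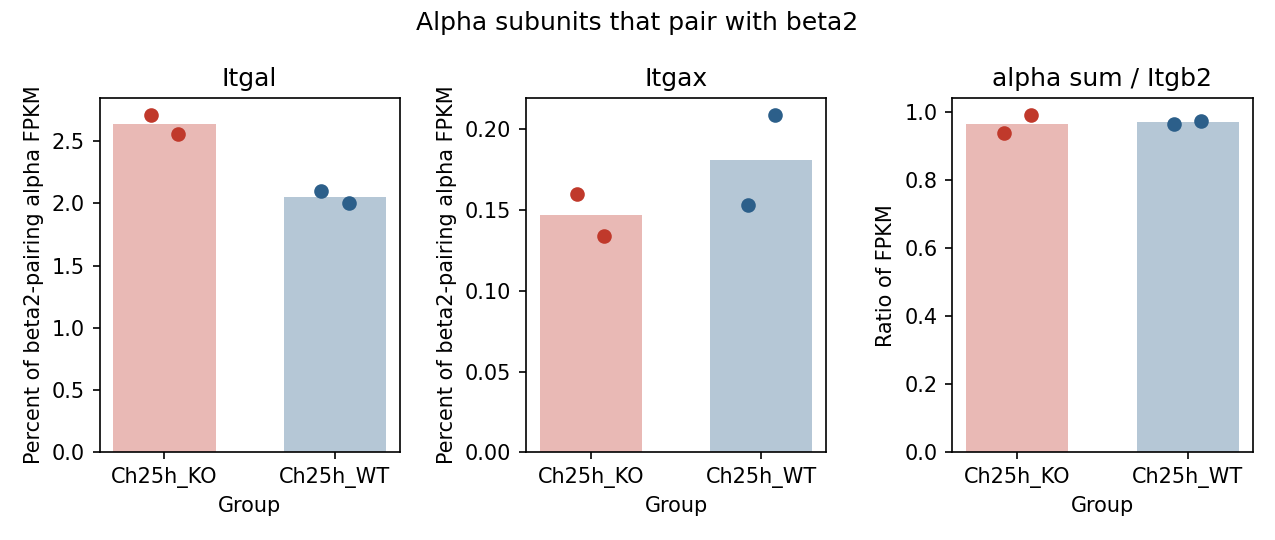
Share of Itgal and of Itgax in the summed FPKM of the alpha chains that pair with beta2, in percent, and the ratio of that sum to Itgb2. Bars are group means from 0 and points are the 2 libraries per group. The Itgal share is above 2.5% in both Ch25h_KO libraries and at most 2.10% in Ch25h_WT, while the ratio to Itgb2 lies between 0.940 and 0.992 in all libraries.

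Among the receptors for matrix proteins, Itgb1 was 318 and 324 FPKM in Ch25h_KO, against 336 and 334 FPKM in Ch25h_WT. The groups did not overlap, but the distance was small. The log2 change was -0.062 (SE 0.052) with a 95% interval of -0.20 to 0.074 and a limma adjusted p of 0.536. Itga5, the alpha chain of the fibronectin receptor, was 46.0 and 49.3 FPKM in Ch25h_KO, against 44.7 and 48.5 FPKM in Ch25h_WT. Duplicates of a group differed by more than the group means did, and the log2 change was 0.031 with a 95% interval of -0.15 to 0.22 (limma adjusted p = 0.838). Itga6, the laminin receptor chain, was the steadiest of the alpha chains at 43.5 and 44.3 FPKM in Ch25h_KO, against 43.3 and 43.2 FPKM in Ch25h_WT. Its log2 change was 0.020 with a 95% interval of -0.12 to 0.16 (limma adjusted p = 0.854). Itga4, which with beta1 binds VCAM-1 and fibronectin, was 7.91 and 7.29 FPKM in Ch25h_KO, against 8.29 and 7.22 FPKM in Ch25h_WT, and the groups overlapped. Its log2 change was -0.024 with a 95% interval of -0.24 to 0.20 (limma adjusted p = 0.897), the widest interval but Itgax. The signs of the small changes of Itga4, Itga5, Itga6, Itgam and Itgb2 turned under at least 1 alternative setting each, so no direction is given for these 5 genes.

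The chains of the vitronectin receptor alphav beta5 lay on opposite sides. Itgav was 23.2 and 22.4 FPKM in Ch25h_KO, against 25.6 and 24.8 FPKM in Ch25h_WT. The groups did not overlap, and the log2 change was -0.14 (SE 0.055, 95% interval -0.28 to 0.0044, limma adjusted p = 0.249). Itgb5 was 10.6 and 9.54 FPKM in Ch25h_KO, against 8.77 and 8.12 FPKM in Ch25h_WT. These groups did not overlap either, with a ratio of means of 1.19 and a log2 change of 0.23 (SE 0.076, 95% interval 0.031 to 0.43, limma adjusted p = 0.203). Neither gene passed under any of 12 alternative settings, and each kept its sign in all of them. The Itgav share of the summed Itga4, Itga5, Itga6 and Itgav RNA was 19.2% and 18.2% in Ch25h_KO, against 21.0% and 20% in Ch25h_WT.

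Of 17 other integrin subunits 14 were listed above 0 and 4 passed the level filter, of which 0 were called with limma and 1 had an unadjusted p under 0.05, against 0.437% and 20.9% of all tested loci. That gene was Itgb3, whose product pairs with alphav and, on platelets, with the chain of Itga2b. Itgb3 was 2.43 and 2.0 FPKM in Ch25h_KO, against 3.90 and 4.13 FPKM in Ch25h_WT, and the groups stood clearly apart. Its mean was 1.82 times as high in Ch25h_WT, and its log2 change of -0.65 (SE 0.084, 95% interval -0.87 to -0.42) had a limma adjusted p of 0.0783. It passed with a pseudocount of 5 FPKM and with limma's trend and robust options, at adjusted p of 0.00930 in the second of these, and the range over alternatives reached 0.328. Itga2b held 7 fragments in each Ch25h_KO library and 4 in each Ch25h_WT library, while the platelet genes Gp9 and Treml1 were listed at 0 in all libraries. Other platelet genes were detected. Gp1bb, on a locus shared with Sept5, was 2.50 and 2.77 FPKM in Ch25h_KO, against 2.32 and 2.99 FPKM in Ch25h_WT, and Ppbp was 1.69 and 0.745 FPKM in Ch25h_KO, against 0.902 and 0.922 FPKM in Ch25h_WT. The 7 platelet markers summed to 2159.8 and 2032 FPKM in Ch25h_KO, against 1628 and 1685 FPKM in Ch25h_WT, almost all of it the chemokine Pf4, which macrophages also express. The part of platelets in the Itgb3 values was not tested.

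Itgb7, which pairs with alpha4 and alphaE on lymphocytes and mast cells, was the most abundant of these other subunits. It was 192 and 197 FPKM in Ch25h_KO, against 195 and 190 FPKM in Ch25h_WT, with a log2 change of 0.016 and a 95% interval of -0.13 to 0.16 (limma adjusted p = 0.892). Its named partners were far lower. Itgb7 stood 24.2 and 27.1 times above Itga4 in Ch25h_KO, and 23.5 and 26.2 times above it in Ch25h_WT, and Itgae held between 1 and 3 fragments per library. The parts of lymphocytes and mast cells, whose markers are given above, in the Itgb7 values were not tested. Itga9, another partner of beta1, was 15.9 and 17 FPKM in Ch25h_KO, against 16.3 and 16.1 FPKM in Ch25h_WT. Itgb8, a partner of alphav that activates latent TGF-beta, was 6.10 and 5.95 FPKM in Ch25h_KO, against 6.20 and 5.41 FPKM in Ch25h_WT. Groups of both genes overlapped. Itga11, Itgb2l and Itgb6 were listed at 0 in all libraries. The remaining subunits that did not pass the filter stayed below 1 FPKM in every library, with Itga1, a collagen receptor chain, at 0.484 and 0.582 FPKM in Ch25h_KO and 0.710 and 0.514 FPKM in Ch25h_WT.

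RNA for integrin ligands was compared in the same libraries. Of 34 listed ligands and counter-receptors 14 passed the filter, and with limma 0 of them were called, where 0.437% of tested loci were called. At an unadjusted p under 0.05 limma gave 4 higher and 2 lower of these 14 genes, against a background of 20.9% (9.38% higher and 11.5% lower). The groups did not overlap for 6 higher and 6 lower genes, against 23.4% and 30.3% of all tested loci. Whether these shares differ from the background was not tested. The median log2 change of the 14 genes was -0.0085, beside -0.014 for all tested loci. Icam2, a ligand of LFA-1, was 207 and 213 FPKM in Ch25h_KO, against 156 and 159 FPKM in Ch25h_WT (limma adjusted p = 0.0780, ratio of means 1.34). Tgfb1, whose latent form is bound by alphav integrins, was 217 and 205 FPKM in Ch25h_KO, against 171 FPKM in each Ch25h_WT library (limma adjusted p = 0.111). Icam2 is also on the list of resident peritoneal macrophage markers, of which 9 of 10 were tested and 0 called by limma, with 2 higher and 3 lower at an unadjusted p under 0.05 and a median log2 change of -0.097. On that list Cd5l was 495 and 515 FPKM in Ch25h_KO, against 661 and 666 FPKM in Ch25h_WT. Vsig4 was 64.6 and 65.6 FPKM in Ch25h_KO, against 85.5 and 91.1 FPKM in Ch25h_WT. Timd4 was higher in Ch25h_KO, like Icam2, at 59.7 and 63.9 FPKM, against 46.3 and 47.6 FPKM in Ch25h_WT. For Gata6 the groups overlapped, at 27.7 and 25 FPKM in Ch25h_KO, against 23.6 and 25.5 FPKM in Ch25h_WT. The part of resident macrophages in the Icam2 values was not tested. In Icam2 and Tgfb1 every Ch25h_KO value lay above every Ch25h_WT value, as in 23.4% of all tested loci. Mfge8, which links dying cells to alphav integrins, was 20.7 and 20.3 FPKM in Ch25h_KO, against 23.1 and 22.4 FPKM in Ch25h_WT (limma adjusted p = 0.226). Lamc1, a laminin chain, was 28.3 and 28.0 FPKM in Ch25h_KO, against 31.8 and 31.9 FPKM in Ch25h_WT (limma adjusted p = 0.178). Edil3 and Jam2 were below 6 FPKM throughout, and their limma adjusted p were 0.205 and 0.255.

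A few further ligands were chosen after their values were seen, for their high level or their place in the family. Thbs1, the matrix protein thrombospondin, was 6166 and 6395 FPKM in Ch25h_KO, against 6323 and 6201 FPKM in Ch25h_WT (limma adjusted p = 0.978). Fn1, fibronectin itself, was 1723 and 1889 FPKM in Ch25h_KO, against 1991 and 2031 FPKM in Ch25h_WT (limma adjusted p = 0.281). Icam1, a ligand of LFA-1 and of complement receptor 3, was 119 and 128 FPKM in Ch25h_KO, against 132 and 138 FPKM in Ch25h_WT (limma adjusted p = 0.323). The fibrinogen genes Fga, Fgb and Fgg and the vitronectin gene Vtn were listed at 0 in all libraries.

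Genes that regulate integrin activation from inside the cell were listed next. Of 24 listed genes 18 passed the filter and with limma 0 were called, where 0.437% of tested loci were called. At an unadjusted p under 0.05 the limma count was 3 higher and 4 lower, against a background of 20.9% (9.38% higher and 11.5% lower), and the median log2 change was 0.0054. The groups did not overlap for 5 higher and 6 lower of the 18 genes, against 23.4% and 30.3% of all tested loci. Tln1 encodes talin, which binds beta tails and opens the receptor, and was 87.3 and 94.2 FPKM in Ch25h_KO, against 104 and 103 FPKM in Ch25h_WT (limma adjusted p = 0.199). Flna, filamin A, which competes with talin for beta tails, was 70.2 and 78.8 FPKM in Ch25h_KO, against 88.4 and 88.2 FPKM in Ch25h_WT (limma adjusted p = 0.181). The adaptor gene Fyb was 24.1 and 25.6 FPKM in Ch25h_KO, against 31.9 and 30.5 FPKM in Ch25h_WT (limma adjusted p = 0.111). The 3 genes of smallest p with a higher mean in Ch25h_KO came next. Sipa1, which turns off the GTPase Rap1, averaged 27.1 FPKM in Ch25h_KO and 23.9 FPKM in Ch25h_WT. Itgb1bp1, a binder of the beta1 tail, averaged 19.7 FPKM in Ch25h_KO and 17.6 FPKM in Ch25h_WT. Sharpin, which holds beta1 integrins inactive, averaged 19.2 FPKM in Ch25h_KO and 15.9 FPKM in Ch25h_WT. The limma adjusted p of these 3 genes lay between 0.193 and 0.222.

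In the adhesion complex and its signalling, 41 of 44 listed genes were tested and with limma 0 were called, against 0.437% of tested loci. At an unadjusted p under 0.05 there were 3 higher and 3 lower genes by limma, against a background of 20.9% (9.38% higher and 11.5% lower), with a median log2 change of -0.0075. Zyx, zyxin, was 77.4 and 69.1 FPKM in Ch25h_KO, against 56.2 and 59.1 FPKM in Ch25h_WT (limma adjusted p = 0.126). Actn1, alpha-actinin, was 9.34 and 9.89 FPKM in Ch25h_KO, against 13 and 11.7 FPKM in Ch25h_WT (limma adjusted p = 0.125). Vcl, vinculin, was 5.81 and 6.05 FPKM in Ch25h_KO, against 7.29 and 6.75 FPKM in Ch25h_WT (limma adjusted p = 0.176). In each of these 3 genes the groups did not overlap, with Zyx higher and Actn1 and Vcl lower in Ch25h_KO, and none of them passed. Of the 41 tested genes, the groups did not overlap for 12 higher and 11 lower genes, against a background of 53.7% of tested loci. Fcer1g, an ITAM adaptor through which beta2 integrins signal, averaged 1233 FPKM in Ch25h_KO and 1021 FPKM in Ch25h_WT (limma adjusted p = 0.111). Rsu1, a partner of the integrin-linked kinase complex, averaged 34.6 FPKM in Ch25h_KO and 30.7 FPKM in Ch25h_WT.

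**Figure D4:**
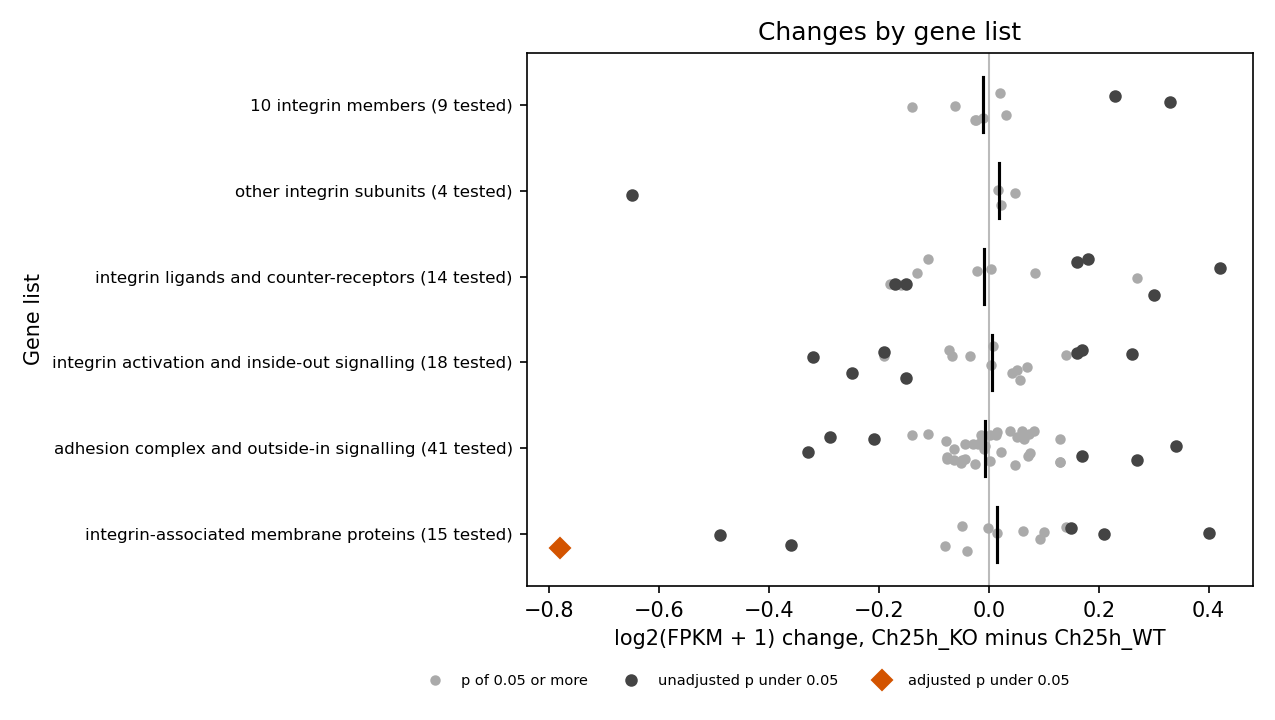
Change on the log2(FPKM + 1) scale for each tested gene of 6 lists, Ch25h_KO minus Ch25h_WT, with a black line at the list median. Light points have an unadjusted p of 0.05 or more, dark points an unadjusted p under 0.05, and the diamond is the single gene with an adjusted p under 0.05, Cav1 at -0.78. All list medians lie within 0.02 of 0.

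The single call among the 5 lists of other integrin genes and partners came from the membrane proteins that sit beside integrins. All 15 listed genes were tested and 1 fell, where 0.437% of tested loci were called and 0.208% were called lower. At an unadjusted p under 0.05 the limma count was 3 higher and 3 lower, against a background of 20.9% (9.38% higher and 11.5% lower), and the median log2 change was 0.015. The groups did not overlap for 7 higher and 5 lower of the 15 genes, against 23.4% and 30.3% of all tested loci. Whether these shares differ from the background was not tested. The gene that fell was Cav1, caveolin 1, the scaffold of membrane caveolae, at 12.4 and 12.2 FPKM in Ch25h_KO, against 22.1 and 21.6 FPKM in Ch25h_WT. The change on the log2 scale was -0.78 (SE 0.053, limma adjusted p = 0.0228), and Cav1 did not pass with any library left out, at adjusted p from 0.148 to 0.173, where a group held a lone library. Lgals3, galectin 3, which binds sugars on integrins and other glycoproteins, was 196 and 198 FPKM in Ch25h_KO, against 270 and 284 FPKM in Ch25h_WT (limma adjusted p = 0.0656). Cd9, a tetraspanin partner of beta1 integrins, was 337 and 320.3 FPKM in Ch25h_KO, against 402 and 439.6 FPKM in Ch25h_WT (limma adjusted p = 0.111). Plaur, the urokinase receptor that associates with complement receptor 3, was 196 and 185 FPKM in Ch25h_KO, against 146 and 142 FPKM in Ch25h_WT (limma adjusted p = 0.0876). Slc3a2, which binds beta1 tails, averaged 344 FPKM in Ch25h_KO and 299 FPKM in Ch25h_WT (limma adjusted p = 0.153). Cd47, named for its association with integrins, averaged 125 FPKM in Ch25h_KO and 112 FPKM in Ch25h_WT (limma adjusted p = 0.206).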

How the data were processed

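Per the submitters' processing notes, bcl2fastq, TopHat2 2.0.14 and Cufflinks 2.2.1 were used with the mouse build mm9; their settings, the annotation and strandedness remain unstated (not given in the sources used). The authors deposited 1 table of FPKM per locus and library; its header does not name the unit, which was read from its decimals and locus identifiers. Its 24192 lines were joined into 23735 loci, and 0 sample columns were left out. Relative depth came from the commonest ratio of values under 0.5 FPKM. With it, 96.3% of 3355 loci under a mean of 0.2 FPKM could be written as whole multiples of 1 fragment. The tolerance was 0.01 fragments, wider for larger counts and for the integrin genes. A locus above 0 in a single library always passes, so this share does not test the depth. Absolute depth used transcript lengths of 175 single-transcript genes in GENCODE vM21.

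FPKM are not counts, so limma 3.58.1 in R 4.3.3 was run on log2(FPKM + 1) with genotype as the only term, over the 10074 loci that averaged 1 FPKM or more. The log2(FPKM + 1) scale understates changes of low genes. The fit was tested on simulated data. The genes, lists and tests were chosen with earlier results of these data known. Beside the 10 integrin genes, the text names the other subunits, the up to 3 higher and 3 lower genes of smallest p in each list (1 of them is not reported here), Ch25h and Apoe; Icam1, Fn1, Thbs1 and cell markers singled out were picked after seeing their values. Ly6g and Ighm were not matched in the table. The 12 alternatives covered pseudocount, filter, scaling, variance model, replicate block and each library left out. Protein sequences were not used here.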

Additional observations from a re-analysis of the deposited data

How the results depend on the processing

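With 2 libraries per group the number of calls depends on how the spread is modelled. Over all tested loci 44 were called; the count was 317 with a pseudocount of 5 FPKM, 18 with no level filter, 175 with a filter at 5 FPKM, 786 with limma's trend and robust options, and 16 to 21 with a library left out. Called genes among the 10 integrins numbered 0, and 1 (Itgal) with a pseudocount of 5, a filter at 5 FPKM or trend and robust options; at an unadjusted p under 0.05 the count was 1 to 2 with a library left out. Among the 5 lists of other integrin subunits and partners 1 gene was called, against 9 with a pseudocount of 5, 4 with a filter at 5 FPKM, 15 with trend and robust options, and 0 with any library left out. The Itgal share difference of 0.592 percentage points ran from 0.518 to 0.666 with a library left out.

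Replicate numbers are shared between groups, but the differences between duplicates had a correlation of 0.0123 across loci, so they give no sign of pairing. With the replicate number as a block 6 loci, 0 integrins and 0 genes of those 5 lists were called; the calls of Cav1 and Ly6c2 were lost at adjusted p of 0.121 and 0.0747.

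Of 515 alternative values of 44 single genes 19 changed sign, all of them close to 0; the cause was not tested. Rescaled to a fixed sum of FPKM, Itga5 was -0.00890, Itga6 -0.0190, Itga9 -0.0165, Itgb7 -0.0236 and Thbs1 -0.0361. With median ratio scaling Itgb2 was 0.00552. With a library left out Itga4 ran from -0.112 to 0.0633, Itga5 from -0.0265 to 0.0875, Itgam from -0.0821 to 0.0309, Itgb2 from -0.0273 to 0.00541, Itgb8 from -0.0351 to 0.131, Itga9 from -0.0233 to 0.0665, Itgb7 from -0.00488 to 0.0377 and Thbs1 from -0.0222 to 0.0305. Itgal, Itgb5, Itgav, Itgb1 and Itgb3 kept their sign under all alternatives that gave a value. Depth limits Itgax most, at 33 to 53 fragments per library; it passed the level filter in 2 alternatives only.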
